A study of Mus musculus with 8 samples.

Results

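Type I interferons act through a receptor of 2 chains, and the open chromatin near the genes of this receptor and of the proteins that carry its signal is described here in BV2, a microglial cell line from mouse. The 9 genes were Ifnar1, Ifnar2, Jak1, Tyk2, Stat2, Irf9, Irf3, Irf7 and Irf1, out of 49939 genes in the RefSeq table used, and were chosen by name. Every ATAC-seq peak within 10 kb of their gene bodies (GRCm38) was taken from each of 8 peak lists. Merging overlapping peaks of the 8 lists gave 40784 regions, and 28 of these lay within 10 kb of a member. Of the 28, 9 lay at the start sites, 1 for each gene, 10 lay inside a gene, 1 overlapped the end of Ifnar2 and 8 lay outside the gene bodies. Exons and introns were not told apart, since no gene structure was used here.

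In monoculture the BV2 line grew by itself, and in co-culture it was plated on the mouse glioma line GL261 at a ratio of 1:2. They were then kept for 16 h in normoxia (21% oxygen) or hypoxia (below 0.1% oxygen), which gives 4 groups with 2 biological replicates each. Cells were fixed with formaldehyde before they were returned to room oxygen, and CD45+ or GFP+ cells were sorted. The labels do not say which marker served which library, and a sort can leave some glioma cells in a co-culture sample. All groups share the same immortalised line, and the labels name no interferon treatment. The labels do not say whether the replicates came from separate thaws or days, so p-values measure the spread between these libraries only.

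Interferon alpha and beta bind the IFNAR1 and IFNAR2 chains, which activate the bound kinases TYK2 and JAK1. The kinases phosphorylate STAT proteins, and STAT2 joins IRF9 in the complex ISGF3, which binds the promoters of interferon-stimulated genes. IRF3 and IRF7 act upstream of this loop, since nucleic acid sensors activate them to switch on interferon genes, and IRF1 is a factor that interferon gamma induces. Microglia both make and respond to type I interferon in infected, injured and tumour-bearing brain.

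The lists differed in length and depth. They held from 9910 to 29658 peaks, with the fewest in the monoculture normoxia libraries (13333 and 9910). An estimate from the deposited p-values and folds put the background coverage at 0.758 to 1.45 fragments per position and the median summit of a called peak at 18 to 30 fragments, lowest in the same 2 libraries. A fragment here is 1 unit of the coverage that the caller counted. It can be a fragment, a read or a cut end, since the caller's settings are not given. The fewest fragments that made a peak were 6 to 8, so a site without a peak fell short of the caller's threshold at the depth of that library and need not be closed. Of 10 microglia and macrophage marker genes, 2 to 4 per library had a region at the start site. Ptprc, which encodes CD45, had its start-site region in all 8 libraries, while the start sites of Aif1, Csf1r, Itgam, Spi1, P2ry12 and Tmem119 had no peak in any. Of 10 glioma and glial markers, 0 had a start-site region in any of the 4 monoculture libraries. In co-culture, Sox2 had a start-site region in 3 libraries and Nes in 2, which gives 2 and 0 genes in the normoxia libraries and 2 and 1 in the hypoxia libraries. The gene bodies and flanks of Olig2, Sox9 and Egfr held no region in any library. Which cells the Sox2 and Nes peaks came from, and what part such cells have in the co-culture results, was not tested.

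Start-site sequences are shown for the 4 members whose start-site regions stood furthest apart in the number of libraries or in rank. Jak1 was near the top of every list, Irf7 was in 2 lists near the bottom, and Irf1 and Irf3 ranked high in co-culture hypoxia only. Each is a window of 300 bases (250 upstream, 50 downstream) from RefSeq, GRCm38.p6, on the strand of the gene, 5′ to 3′. The Irf1 window is chr11:53769764-53770063 on the plus strand, the Irf3 window is chr7:44997398-44997697 on the plus strand, the Irf7 window is chr7:141266375-141266674 on the minus strand and the Jak1 window is chr4:101265174-101265473 on the minus strand. Capitals mark the STAT site and the GCGTG core on either strand.
Irf1: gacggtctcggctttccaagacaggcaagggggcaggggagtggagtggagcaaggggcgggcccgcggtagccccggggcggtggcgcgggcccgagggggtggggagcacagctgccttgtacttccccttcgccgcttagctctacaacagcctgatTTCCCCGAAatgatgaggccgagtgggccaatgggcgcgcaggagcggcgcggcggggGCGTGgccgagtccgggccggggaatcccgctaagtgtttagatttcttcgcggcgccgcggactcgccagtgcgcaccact
Irf3: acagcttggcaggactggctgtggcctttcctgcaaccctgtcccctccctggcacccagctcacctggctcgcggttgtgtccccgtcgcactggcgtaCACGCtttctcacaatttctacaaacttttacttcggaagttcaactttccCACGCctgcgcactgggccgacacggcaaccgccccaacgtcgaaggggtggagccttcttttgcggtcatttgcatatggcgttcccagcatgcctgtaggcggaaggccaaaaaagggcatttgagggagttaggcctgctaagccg
Irf7: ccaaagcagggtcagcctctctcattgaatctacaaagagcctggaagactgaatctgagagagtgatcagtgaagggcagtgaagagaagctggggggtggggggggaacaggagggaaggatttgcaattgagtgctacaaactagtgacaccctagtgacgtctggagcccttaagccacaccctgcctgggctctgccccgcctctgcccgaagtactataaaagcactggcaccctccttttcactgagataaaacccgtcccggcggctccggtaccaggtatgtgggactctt
Jak1: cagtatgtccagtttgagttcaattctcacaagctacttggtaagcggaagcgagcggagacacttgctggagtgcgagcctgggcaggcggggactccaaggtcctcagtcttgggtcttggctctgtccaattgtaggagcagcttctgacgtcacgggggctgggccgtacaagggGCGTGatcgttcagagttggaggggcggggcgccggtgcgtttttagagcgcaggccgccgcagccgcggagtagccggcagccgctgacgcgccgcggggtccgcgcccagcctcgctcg

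GC content was 69.3% in the Irf1 window, 58.3% in Irf3, 55.0% in Irf7 and 64.7% in Jak1. The Irf1, Irf3 and Jak1 windows lay wholly within their peak regions, and the Irf7 window partly. The motif TTCNNNGAA, the letters of a STAT binding site, stood in the windows of Ifnar1, Ifnar2 and Irf1 (3 of 9) and in 8.30% of 32851 start-site windows. In Irf1 it began 90 bases before the start (-90, with the start base as 0) as TTCCCCGAA. The motif is its own reverse complement, so every match to it reads on both strands. The interferon regulatory factor core GAAANNGAA was in the Stat2 window alone (1 of 9, 8.56% of all windows). Of the 2 hypoxia response cores, GCGTG was in 6 of the 9 windows (32.4% of all) and ACGTG, which is also part of the E-box CACGTG, in 0 (19.6% of all). The PU.1 core GAGGAA was in the windows of Ifnar1 and Irf9 (28.3% of all), and the AP-1 motif TGANTCA was in 0 of 9 (7.81% of all). The Irf7 window held none of the 6 motifs on either strand. These are matches of letters, and no binding was measured.

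Across the 8 lists, 15 and 12 of the 28 regions were called in monoculture normoxia, 21 and 25 in monoculture hypoxia, 20 and 21 in co-culture normoxia, and 25 and 22 in co-culture hypoxia (replicates 1 and 2). For the 9 start sites alone the counts were 5 and 6, 7 and 8, 8 and 9, and 9 and 8. Of all 9477 start-site regions, 50.1% and 39.9%, 71.3% and 72.0%, 76.0% and 80.3%, and 87.7% and 79.8% were called in the same order. Monoculture normoxia, with the shortest lists, had the fewest called in the members and in all start sites alike. Of the 28 regions, 10 were in all 8 lists, against 15.6% of all regions and 32.4% of start-site regions. The 10 were the start sites of Ifnar1, Ifnar2, Jak1 and Tyk2, 4 further regions inside Jak1, 1 inside Tyk2 and 1 upstream of Ifnar2. No start-site region of Stat2, Irf9 or any Irf gene was in all 8 lists.

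**Figure D1:**
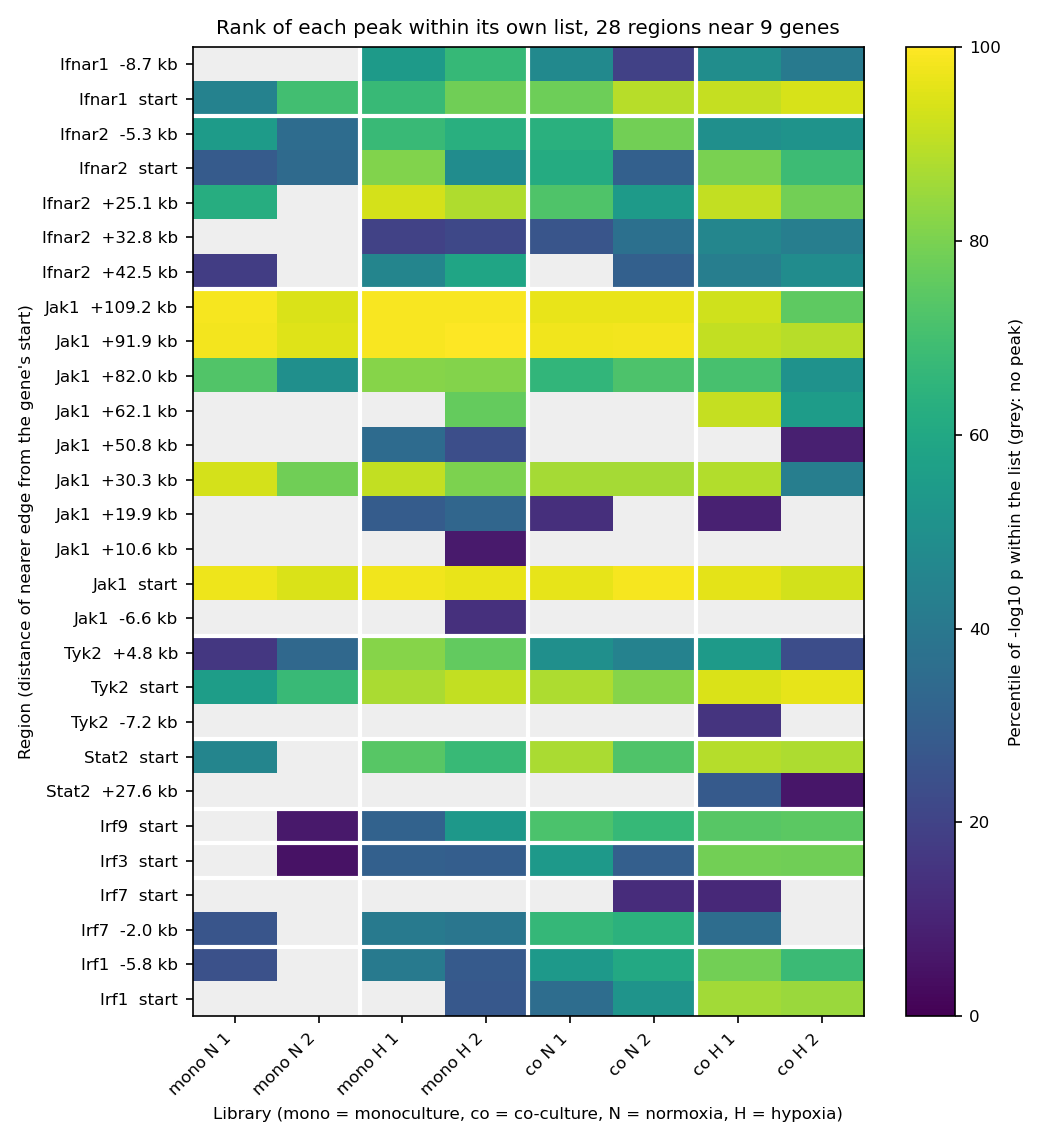
Rank of each peak by -log10 p, as a percentile of its list from 0 to 100, for the 28 regions near the 9 genes (rows, with the distance from the gene's start) in the 8 libraries (columns); grey marks a library with no peak. The Jak1 rows at the start site, 91.9 kb and 109.2 kb are near the top of most lists, and the Irf rows are grey or low in monoculture normoxia.

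Peaks were ranked within each list by the deposited -log10 p, and the rank is given as a percentile at which 100 is the most significant peak. Percentiles from lists of different length place a peak within its own library and show no change between libraries on their own. The median percentile of the called member start sites was 45.5 and 51.2 in monoculture normoxia, 73.9 and 60.4 in monoculture hypoxia, 74.8 and 66.9 in co-culture normoxia, and 86.1 and 86.3 in co-culture hypoxia. Over all start-site regions the medians were 59.8 and 60.3, 58.9 and 57.6, 64.3 and 67.4, and 67.0 and 70.4 in the same order. Over the members that were called, member start sites thus had a median below that of all start sites in both monoculture normoxia libraries. It was above in both libraries of monoculture hypoxia and of co-culture hypoxia. In co-culture normoxia it was above in replicate 1 and slightly below in replicate 2.

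Ifnar1 encodes the receptor chain that TYK2 binds. Its start-site region (chr16:91484757-91485729) was in all 8 lists, at percentiles 44.3 and 69.6 in monoculture normoxia, 67.3 and 78.4 in monoculture hypoxia, 77.9 and 89.2 in co-culture normoxia, and 91.2 and 93.8 in co-culture hypoxia. Among the regions called in all 8 libraries, where the same regions are ranked each time, it was at 23.0 and 55.6, 31.9 and 44.9, 42.9 and 67.3, and 71.1 and 83.3 in the same order. On both scales the co-culture hypoxia values lay above those of every other group. Its summit held 16 and 23 fragments in monoculture normoxia and 73 and 88 in co-culture hypoxia. A region 8.65 kb upstream (chr16:91475684-91476565) was in neither monoculture normoxia list, at 54.4 and 66.8 in monoculture hypoxia, 47.5 and 19.5 in co-culture normoxia, and 49.2 and 41.1 in co-culture hypoxia. This upstream peak was therefore gained with hypoxia in monoculture and with co-culture in normoxia, where gained means present in both libraries of the first group and in neither of the second.

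Ifnar2 encodes the chain with the higher affinity for interferon, which JAK1 binds. Its start-site region (chr16:91372413-91373440) also overlaps the noncoding gene Gm36587. It was in all 8 lists, at 28.9 and 34.7 in monoculture normoxia, 81.1 and 48.7 in monoculture hypoxia, 61.6 and 30.5 in co-culture normoxia, and 79.9 and 68.4 in co-culture hypoxia. Among the regions called in all 8 libraries it was at 10.7 and 17.1, 51.2 and 13.1, 21.1 and 3.20, and 47.3 and 40.7. On that scale normoxia and hypoxia overlapped in monoculture, while both hypoxia values lay above both normoxia values in co-culture. A region 25.06 kb into the gene was at 62.3 in 1 monoculture normoxia library and absent from the other, at 93.5 and 88.1 in monoculture hypoxia, 72.5 and 54.5 in co-culture normoxia, and 90.7 and 78.7 in co-culture hypoxia. Both hypoxia values of each culture lay above its normoxia values within these lists. The region 5.3 kb upstream (chr16:91366570-91367483), which lies in the noncoding gene Gm36587, was in all 8 lists between 35.3 and 78.8. At the end of Ifnar2 a region that also overlaps its neighbour Il10rb, which encodes a chain of the interleukin-10 and interferon lambda receptors, was in no monoculture normoxia list, at 19.9 and 21.6 in monoculture hypoxia, 26.2 and 37.1 in co-culture normoxia, and 45.8 and 42.9 in co-culture hypoxia. It was gained in the same 2 comparisons as the Ifnar1 upstream region. A region 42.45 kb from the start, inside Il10rb, was in 6 lists between 18.3 and 58.8.

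Jak1 encodes the kinase bound to IFNAR2, which also serves interferon gamma and many cytokine receptors, and it had the most regions of the 9 genes (10). Its start-site region (chr4:101264458-101265598) was in all 8 lists, at 97.4 and 94.5 in monoculture normoxia, 97.8 and 96.5 in monoculture hypoxia, 96.1 and 98.8 in co-culture normoxia, and 95.8 and 93.3 in co-culture hypoxia. Among the 9 start sites it ranked first in 7 of 8 libraries, and it stood after Tyk2 and Ifnar1 in co-culture hypoxia replicate 2. The summit held 60 to 163 fragments, the deepest of the member start sites in the 6 libraries outside co-culture hypoxia.

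Inside Jak1, toward its 3′ end, the regions at 91.94 kb (chr4:101172697-101173279) and 109.2 kb (chr4:101155197-101156070) were also in all 8 lists. The first was at 98.1 and 95.0 in monoculture normoxia, 99.2 and 99.7 in monoculture hypoxia, 97.9 and 98.1 in co-culture normoxia, and 91.0 and 89.4 in co-culture hypoxia. The second was at 98.8 and 94.5, 98.9 and 99.1, 96.7 and 96.7, and 92.6 and 75.1 in the same order. For both regions the co-culture hypoxia libraries were the lowest 2 of the 8, without overlap with any other group. Summit fragments at 91.94 kb were 71 and 57 in monoculture normoxia, 144 and 206 in monoculture hypoxia, 100 and 130 in co-culture normoxia, and 74 and 66 in co-culture hypoxia. At 109.2 kb they were 84 and 57, 133 and 150, 91 and 116, and 79 and 45. Fragment numbers, which also follow the depth of a library, were thus as low in monoculture normoxia as in co-culture hypoxia.

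The regions at 82.0 kb and 30.32 kb were in all 8 lists as well, between 49.7 and 81.9 and between 42.6 and 93.6. A region at 62.14 kb (chr4:101202561-101203082) was in no normoxia list, at 76.3 in 1 monoculture hypoxia library, and at 91.3 and 55.4 in co-culture hypoxia. It was gained with hypoxia in co-culture. The regions at 50.79 kb and 19.85 kb were gained with hypoxia in monoculture, at 35.1 and 24.2 and at 29.1 and 32.9. Each was also in at least 1 co-culture list, at or below 13.6. The regions 10.63 kb into the gene and 6.568 kb upstream of the start were called in 1 library each, monoculture hypoxia replicate 2, at 7.42 and 13.8.

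**Figure D2:**
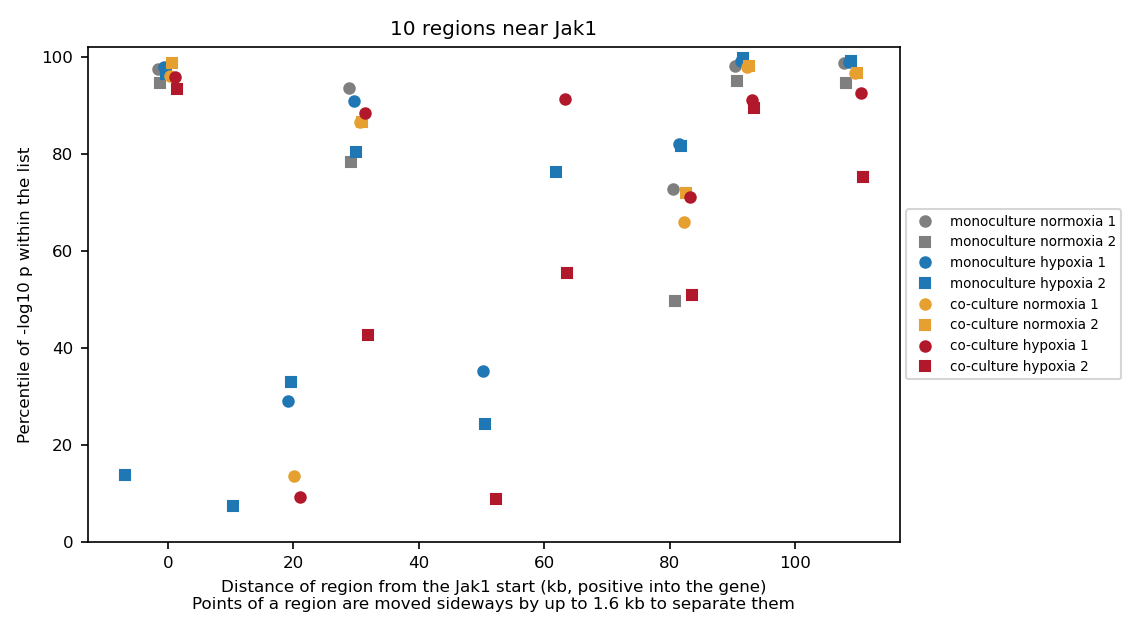
Percentile within the list (vertical axis, 0 to 100) of each called peak in the 10 regions near Jak1, by distance from its start in kb (horizontal axis, positive into the gene), with circles for replicate 1, squares for replicate 2 and a colour for each group. At 91.94 and 109.2 kb the 2 co-culture hypoxia points are the lowest, while at the start site all 8 points lie between 93.3 and 98.8.

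Tyk2 encodes the kinase bound to IFNAR1, shared with the interleukin-12 and interleukin-23 receptors. Its start-site region (chr9:21131050-21131799) was in all 8 lists, at 55.8 and 67.7 in monoculture normoxia, 87.4 and 90.7 in monoculture hypoxia, 87.5 and 82.0 in co-culture normoxia, and 94.4 and 96.2 in co-culture hypoxia. Among the regions called in all 8 libraries it was at 34.3 and 53.1, 64.0 and 70.3, 63.1 and 50.7, and 80.0 and 89.2. On that scale co-culture hypoxia was the highest group without overlap, and the 2 normoxia groups overlapped. A region 4.799 kb into the gene (chr9:21125472-21126476) was at 16.3 and 33.6, 82.0 and 75.8, 49.8 and 44.2, and 54.6 and 23.8 in the same order. Unlike the start site, it ranked highest in monoculture hypoxia. A region 7.214 kb upstream was called in co-culture hypoxia replicate 1 alone, at 15.1.

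Stat2 encodes the STAT protein that is specific to type I and type III interferon signalling. Its start-site region (chr10:128270160-128270837) also overlaps the gene Apof. It was at 45.5 in 1 monoculture normoxia library and absent from the other, at 73.9 and 67.4 in monoculture hypoxia, 87.2 and 72.5 in co-culture normoxia, and 88.9 and 87.6 in co-culture hypoxia. A region 27.63 kb from the start, past the end of the gene, was at 28.2 and 6.09 in co-culture hypoxia and in no other library, so it was gained in both comparisons that end in that group. Irf9 encodes the DNA-binding subunit of ISGF3. Its start-site region (chr14:55603854-55604550) was absent from 1 monoculture normoxia library and at 6.66 in the other, at 31.4 and 53.3 in monoculture hypoxia, 71.7 and 66.9 in co-culture normoxia, and 74.0 and 74.9 in co-culture hypoxia. The Irf9 site thus ranked higher in each co-culture library than in any monoculture library.

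Irf3, the factor that sensors of viral nucleic acid activate first, shares its start-site region (chr7:44997023-44998105) with the start of Bcl2l12, so the signal cannot be given to either gene. The region was absent from 1 monoculture normoxia library and at 4.84 in the other, at 30.6 and 29.9 in monoculture hypoxia, 54.0 and 30.1 in co-culture normoxia, and 78.9 and 78.3 in co-culture hypoxia. Both co-culture hypoxia values lay above all others. Summit fragments were 18 and 17 in monoculture hypoxia, 20 and 16 in co-culture normoxia, and 45 and 44 in co-culture hypoxia.

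Irf7, which amplifies interferon production and is itself an interferon-stimulated gene in most cells, had the weakest start site. Its region (chr7:141266118-141266528) was in 2 libraries, co-culture normoxia replicate 2 at 12.6 and co-culture hypoxia replicate 1 at 11.6. In no group was it called in both replicates. A region 1.99 kb upstream, which overlaps the neighbouring gene Cdhr5, was in 6 lists between 26.5 and 66.5, highest in the co-culture normoxia libraries (66.5 and 64.3) and called in only 1 co-culture hypoxia library (35.8).

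Irf1 encodes a factor that drives antigen presentation and other interferon-gamma and inflammatory genes. Its start-site region (chr11:53769681-53770439), the window printed above with the STAT site, was in no monoculture normoxia list and in 1 of 2 monoculture hypoxia lists at 27.7. It was at 35.9 and 51.8 in co-culture normoxia and at 86.1 and 85.0 in co-culture hypoxia, with 17, 23, 59 and 57 fragments at the summit. The site was gained with co-culture in normoxia, and the 2 co-culture hypoxia values were the highest. A region 5.837 kb upstream (chr11:53762983-53764177), which overlaps the microRNA gene Mir7671, was at 24.8 in 1 monoculture normoxia library, 41.2 and 28.3 in monoculture hypoxia, 54.0 and 60.4 in co-culture normoxia, and 78.9 and 68.1 in co-culture hypoxia. The order of the groups was the same at both Irf1 regions.

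**Figure D3:**
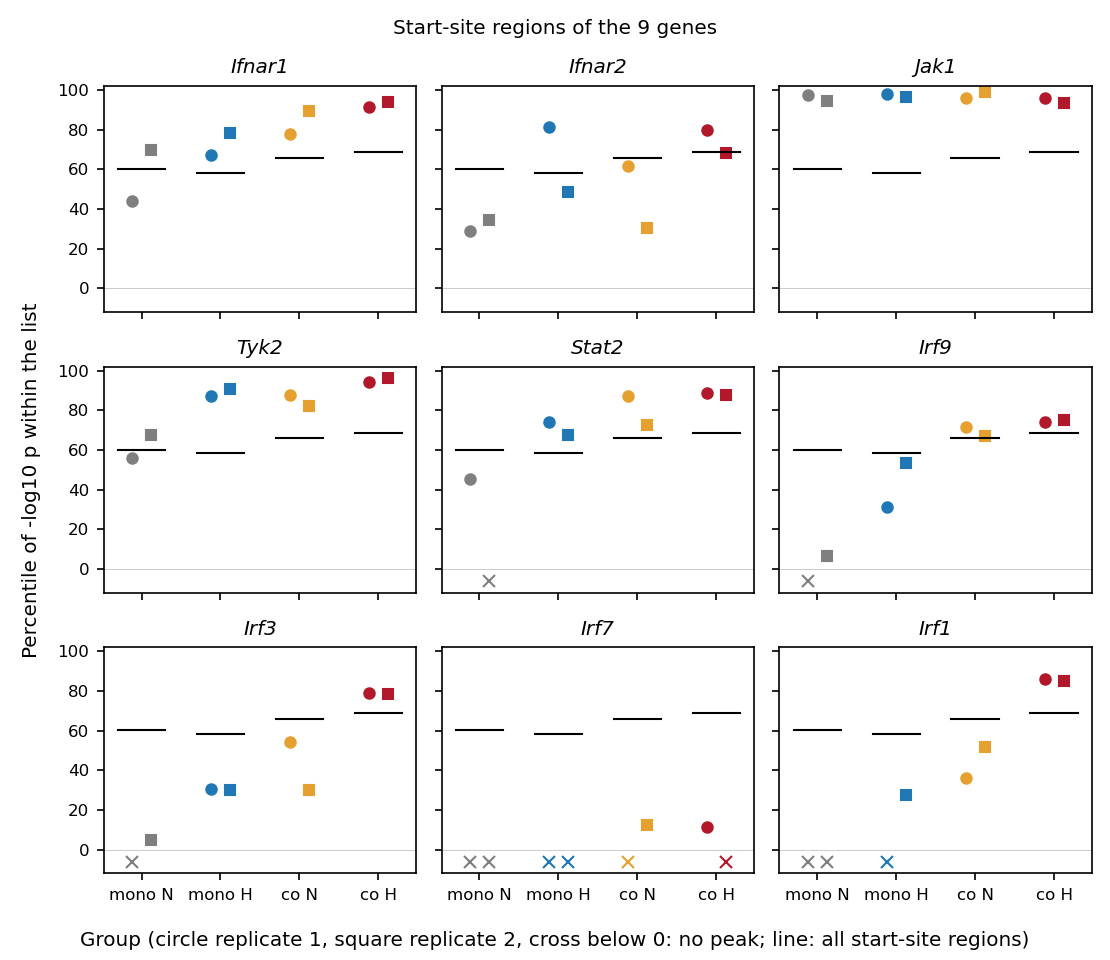
Percentile within the list (vertical axis) of the start-site region of each of the 9 genes in the 4 groups, with a circle for replicate 1, a square for replicate 2, a cross below 0 for a library with no peak, and a black line at the mean over the group's 2 libraries of the median percentile of all start-site regions. Jak1 stays between 93.3 and 98.8, Irf7 has 2 peaks in 8 libraries, and Irf3 and Irf1 reach their highest values in co-culture hypoxia.

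Within co-culture hypoxia the replicates shared part of the order of the start sites. Tyk2, Jak1 and Ifnar1 came first with overlapping values, from 91.2 to 96.2, in a different order in each replicate. Stat2 (88.9 and 87.6) stood below these and Irf1 (86.1 and 85.0) below Stat2, each without overlap between its replicates and those of its neighbour. Irf3 and Irf9 followed, inside the range of Ifnar2 (79.9 and 68.4), which stood above both in replicate 1 and below both in replicate 2, and Irf7 was last or absent. In monoculture hypoxia Jak1 and Tyk2 again led without overlap, Ifnar2, Ifnar1 and Stat2 overlapped between 48.7 and 81.1, Irf9 (31.4 and 53.3) overlapped Ifnar2, and Irf3 (30.6 and 29.9) and Irf1 (absent and 27.7) stood at the lower end.

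Presence counts compare the groups without a test, since 2 libraries against 2 cannot reach 0.05 in an exact permutation test. With hypoxia in monoculture 4 of 28 member regions were gained, against 17.7% of all regions, and 0 were lost, against 0.179%. The 4 were the Ifnar1 upstream region, the region at the end of Ifnar2 and the Jak1 regions at 50.79 and 19.85 kb. With hypoxia in co-culture 2 were gained (Jak1 at 62.14 kb and the region past Stat2), against 6.09%, and 0 were lost, against 2.05%. With co-culture in normoxia 3 were gained (Ifnar1 upstream, the end of Ifnar2 and the Irf1 start site), against 12.5%, and 0 were lost, against 0.181%. With co-culture in hypoxia 1 was gained (past Stat2), against 5.83%, and 0 were lost, against 3.76%. The member shares (14.3%, 7.14%, 10.7% and 3.57%) were near those of all regions, and most gains were in the comparisons in which monoculture normoxia, with the shortest lists, is the reference.

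Because the lists differ in length, the same counts were made over the 9910 best-ranked peaks of each library, which hold 19 member regions of 19790. With hypoxia in monoculture 0 of 19 were gained (7.39% of all) and 0 lost (5.15%), and with co-culture in normoxia 0 were gained (4.88%) and 0 lost (2.96%). With hypoxia in co-culture 3 were gained, the start sites of Irf1 and Irf3 and Jak1 at 62.14 kb (5.45% of all), and 2 were lost, upstream of Ifnar2 and of Irf7 (5.73%). With co-culture in hypoxia 4 were gained, the start sites of Irf9, Irf3 and Irf1 and the Irf1 upstream region (7.39%), and 2 were lost, upstream of Ifnar2 and inside Tyk2 (7.01%). At equal list length no member region was gained with hypoxia in monoculture or with co-culture in normoxia. The Irf1 start site was among these peaks in the co-culture hypoxia libraries alone, the Irf3 start site also in monoculture normoxia replicate 2, and the Irf9 start site also in that library and both co-culture normoxia libraries. The Irf7 start site was in none of the 8. In this setting 8 of the 9 start sites were among the best-ranked peaks in each co-culture hypoxia library, against 4 to 6 in the other libraries. Of all start-site regions, 44.1% and 52.7% were so in co-culture hypoxia, and 32.5% to 50.8% in the other libraries.

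Ranks were then compared with a test that uses the same regions in every library. The 6375 regions called in all 8 libraries, 10 of them near members, were re-ranked, ranks were turned into normal scores (a scale on which the middle rank is 0 and 1 is 1 SD of all regions), and limma with Benjamini-Hochberg adjustment over the 6375 regions was used at a threshold of 0.05. For co-culture in hypoxia 2 of the 10 member regions passed, against 4.74% of all regions, and both were inside Jak1. The region at 91.94 kb fell by 1.47 ± 0.27 (SE, adjusted p = 0.0366) and the region at 109.2 kb fell by 1.44 ± 0.32 (adjusted p = 0.0437). Among the shared regions the first had stood at percentiles 97.2 and 98.7 in monoculture hypoxia and 70.3 and 74.1 in co-culture hypoxia, and the second at 96.0 and 96.3 against 74.7 and 49.9. For culture over both oxygen levels 2 of 10 passed, against 10.8%, the same 2 regions, at -0.78 ± 0.19 (adjusted p = 0.0359) and -0.94 ± 0.23 (adjusted p = 0.0348). That comparison averages the 2 oxygen levels. In normoxia the differences with co-culture were -0.09 ± 0.27 and -0.44 ± 0.32 (limma adjusted p = 0.908 and 0.548). These calls over both oxygen levels were lost in 9 and 8 of 13 alternatives, and ranking by the deposited fold gave -0.36 for the region at 91.94 kb (limma adjusted p = 0.574). The Jak1 start site did not pass for co-culture in hypoxia or for culture over both oxygen levels, at -0.30 ± 0.30 and -0.18 ± 0.21 (limma adjusted p = 0.551 and 0.593). The start site ranked at 91.9 and 87.2 in monoculture hypoxia and 84.4 and 82.3 in co-culture hypoxia, a smaller difference whose contrast with the internal regions was not tested.

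The median difference for co-culture in hypoxia was 0.25 over the 3073 start-site regions and -0.33 over the rest. Scores are centred over all regions in each library, so a higher median of the first class goes with a lower median of the other by construction. The 2 Jak1 differences were larger in size than the second median and had its sign. Both regions are named because they passed the test, so their size does not set them apart from other regions of that class. Both calls for co-culture in hypoxia were lost when any single library outside monoculture normoxia was left out, with limma adjusted p from 0.0539 to 0.285, and in the ranking by deposited fold (adjusted p = 0.293 at 91.94 kb and 0.332 at 109.2 kb). Without moderation of the variance they were lost as well (adjusted p = 0.0971 and 0.151). The differences ran from -1.77 to -1.09 over all alternatives tried.

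In the remaining rank comparisons no member passed. For hypoxia in monoculture 0 of 10 passed in limma, against 0% of all regions, with 1 member and 1320 regions (20.7%) at an unadjusted p under 0.05. For hypoxia in co-culture 0 of 10 passed, against 1.16%, with 4 members and 1401 regions (22.0%) at an unadjusted p under 0.05. For co-culture in normoxia 0 of 10 passed in limma, against 0%, with 0 members and 1010 regions (15.8%). For oxygen over both cultures 0 of 10 passed, against 10.1%, with 3 members and 1906 regions (29.9%) at an unadjusted p under 0.05, so the members' share was that of all regions. The nearest was the Tyk2 start site, at 0.74 ± 0.21 (limma adjusted p = 0.0537), and the Ifnar2 start site was at 0.86 ± 0.31 (adjusted p = 0.100). The interaction of oxygen and culture passed for 0 of 10, against 0%, with 2 members and 625 regions (9.80%) at an unadjusted p under 0.05. The same fit without moderation of the variance gave 0 calls over all regions in all 7 comparisons.

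The start sites of Stat2, Irf9 and Irf3 lacked a peak in 1 of the 2 monoculture normoxia libraries and could not enter that test. They were ranked among the 11728 regions called in the other 6 libraries, 17 of them near members, a choice made after the values were seen. The start sites of Irf1 and Irf7 lacked peaks in this set too, and the Irf7 start site entered no rank test. For co-culture in hypoxia 5 of 17 member regions passed, against 9.84% of all regions. The start site of Irf3 and Bcl2l12 rose by 1.42 ± 0.31 (SE, limma adjusted p = 0.0368), from shared percentiles 12.4 and 11.6 to 55.7 and 63.8. The region upstream of Irf1 rose by 1.11 ± 0.27 (adjusted p = 0.0423), from 20.4 and 10.5 to 55.6 and 50.1. The region inside Tyk2 fell by 1.34 ± 0.31 (adjusted p = 0.0382), from 67.5 and 57.0 to 24.5 and 8.62, and the Jak1 regions at 91.94 and 109.2 kb fell by 1.45 ± 0.25 (adjusted p = 0.0328) and 1.44 ± 0.30 (adjusted p = 0.0355). The differences for the start sites of Ifnar1 (0.91 ± 0.31), Irf9 (0.90 ± 0.30) and Stat2 (0.70 ± 0.30) did not pass, at limma adjusted p = 0.0849, 0.0815 and 0.146.

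In this set the median difference was 0.30 over 5232 start-site regions and -0.32 over the rest, and 496 of the 554 start-site regions that passed were higher in co-culture hypoxia. Of the 5 member regions that passed, the Irf3 start site was higher, the 3 inside Jak1 and Tyk2 were lower, and the Irf1 region, which is not at a member's start site, was higher. Each of the 3 calls beyond Jak1 was lost when either library of monoculture hypoxia or of co-culture hypoxia was left out, in the ranking by deposited fold, and in the fit without moderation (adjusted p = 0.172 for Tyk2, 0.174 for Irf3 and 0.155 for Irf1). By deposited fold the differences were -1.85 for Tyk2, 1.33 for Irf3 and 0.06 for the upstream Irf1 region (limma adjusted p = 0.0911, 0.122 and 0.951). The Irf1 call was also lost without co-culture normoxia replicate 2 (adjusted p = 0.05016). For hypoxia in co-culture over these 6 libraries 0 of 17 passed in limma, against 2.89%, with 6 members and 3206 regions (27.3%) at an unadjusted p under 0.05, Irf3 at 1.15 ± 0.31 (adjusted p = 0.0705) among them.

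The Irf1 start site could be tested in the 4 co-culture libraries alone, among 13617 regions, again a choice made after the values were seen. With hypoxia its difference was 1.32 ± 0.30 (limma adjusted p = 0.103). Of 18 member regions 0 passed, against 0% of all regions, with 4 members and 3248 regions (23.9%) at an unadjusted p under 0.05.

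**Figure D4:**
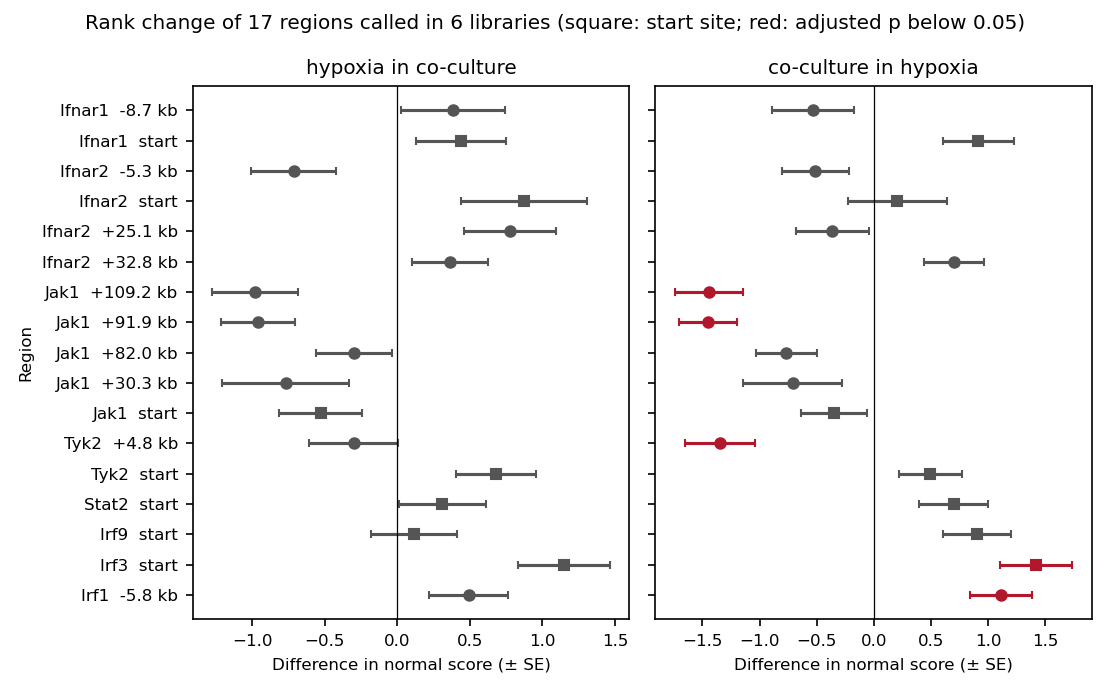
Difference in normal score of rank (horizontal axis, ± SE) with hypoxia in co-culture (left) and with co-culture in hypoxia (right) for the 17 member regions called in the 6 libraries outside monoculture normoxia; squares are start sites, and red marks a limma adjusted p below 0.05. On the right the 2 Jak1 regions and the Tyk2 region lie between -1.45 and -1.34, and the Irf3 start and Irf1 upstream regions at 1.42 and 1.11.

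Around the 9 genes, the rest of the pathway was described by lists of related genes. Their gains are to be read against those of all regions, 17.7% with hypoxia in monoculture, 6.09% with hypoxia in co-culture, 12.5% with co-culture in normoxia and 5.83% with co-culture in hypoxia. The 17 type I interferon ligand genes had 3 regions within 10 kb, none at a start site and none gained or lost. The 7 genes of other interferon receptors and their kinases and STATs had 19 regions, of which 3 were gained with hypoxia in monoculture, 0 with hypoxia in co-culture, 2 with co-culture in normoxia and 0 with co-culture in hypoxia. The start site of Stat3 was in all 8 lists, from 71.5 to 99.0. The start site of Ifngr1, a chain of the interferon gamma receptor, was in 7 lists, from 73.5 to 96.9.

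The 8 negative regulators had 24 regions, with 1, 1, 2 and 1 gained in the same order of comparisons. Socs3, a feedback inhibitor of JAK kinases, was absent from 1 monoculture normoxia list and at 31.6 in the other, and at 33.8 in 1 monoculture hypoxia list. It was at 63.4 and 81.7 in co-culture normoxia and at 92.0 and 88.0 in co-culture hypoxia, an order like that of the Irf1 start site. Usp18, which blocks JAK1 at IFNAR2, had no start-site region. The 5 other Irf genes had 22 regions, with 3, 0, 3 and 1 gained. Irf8, a factor of the myeloid lineage, had a start-site region gained with hypoxia in monoculture (20.1 and 26.3), and Irf4 and Irf5 had none at the start. The 14 sensors and adaptors had 43 regions, with 4, 2, 3 and 0 gained and 0, 1, 0 and 1 lost. The adaptor gene Myd88 was the highest of these at the start site, from 97.2 to 99.5 in all 8 lists. For comparison the 30 regions near the microglia markers had 8, 2, 5 and 0 gained and 0, 3, 0 and 1 lost (0.179%, 2.05%, 0.181% and 3.76% of all regions were lost), and the 15 near the glioma markers had 0, 0, 0 and 3 gained and 0 lost.

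Genes with a pattern like a member's were sought for the Ifnar2 start site, which had the largest spread of group means (SD 0.53 in normal score) among the 4 member start sites called everywhere. Over the 8 libraries the most alike region was the shared promoter region of Psme2, a proteasome activator subunit, and Rnf31, a ubiquitin ligase subunit (chr14:55590714-55591822, Pearson r = 0.948). The next was a region at Fem1a (chr17:56255615-56256950, r = 0.897). These are the highest of 6375 regions over 8 libraries and describe likeness of rank only.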

How the data were processed

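ATAC-seq was carried out on 8 libraries, and the authors deposited a separate peak list for each, with replicates not pooled. For every peak the deposited columns hold its place, a score, the -log10 p and -log10 q, the fold over that library's background (a ratio at the summit), and the summit's offset in bp. These values are each list's own and were used only to rank or filter peaks within a list. Per the submitters' processing notes, the tools were Trimmomatic 0.36, HISAT2 2.1.0, Picard, SAMtools, deepTools and MACS2 2.1.1.2, with the build mm10. The settings, filters and any shift for the Tn5 insertion are not given in the sources used here, and peaks can move with them. The lowest -log10 q in the lists was 2. Reads were 151 bp pairs, per the labels.

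Peaks that overlapped by at least 1 bp were merged into regions. Genes and their start sites came from RefSeq tables of GRCm38.p6, all 9 members matched, and a start-site region lies within 1 kb of a start. Ranks were tested with limma 3.58.1 in R 4.3.3 on normal scores, with 1 mean per group, two-sided, over 7 comparisons. Fragment numbers were solved from the deposited fold and -log10 p to within 0.001 for 99.8% to 99.9% of the peaks of each list. They cover counting error only, and fragments without molecular identifiers are not independent molecules. The rank test was checked on simulated data. Other steps ran in Python 3.11.15 with pandas 2.3.3, scipy 1.17.1 and numpy 2.4.6, and figures in matplotlib 3.10.9.

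The members, gene lists, tests and alternatives were chosen with earlier results of these data known. All 9 start-site regions are named, as are further regions that were gained or lost or that passed the rank test, and the rest are summarised. Some genes of the lists are not reported here by name. Genes of like pattern are the 3 with the highest Pearson r to the start site of widest group spread. The replicate numbers were not used as pairs, since same-numbered libraries did not deviate together (correlations from -0.04 to 0.18).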

Additional observations from a re-analysis of the deposited data

Results flagged for a closer look

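The region inside Jak1 at 91.94 kb from the start (chr4:101172697-101173279) drew attention because its rank differed in opposite directions between hypoxia and normoxia in the 2 cultures. Among regions called in all 8 libraries it was at percentiles 96.2 and 92.3 in monoculture normoxia, against 97.2 and 98.7 for monoculture hypoxia, so both hypoxia libraries were higher. In co-culture it was at 93.2 and 93.8 in normoxia and 70.3 and 74.1 in hypoxia, so both hypoxia libraries were lower. Neither difference passed limma on its own, at 0.46 (adjusted p = 0.364) in monoculture and -0.92 (adjusted p = 0.104) in co-culture. The difference between the responses was -1.38 ± 0.39 in normal score, and it did not pass limma with Benjamini-Hochberg adjustment over all 6375 regions (adjusted p = 0.368).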

How the results depend on the processing

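Under other settings, member counts above 0 stayed within 1.5 times the value reported in 28 of 67 cases and moved in 39, and counts of 0 stayed at 0 in 97 of 107. Over the 9910 best-ranked peaks of each list, gains with hypoxia in monoculture went from 4 to 0 and with co-culture in normoxia from 3 to 0, gains with co-culture in hypoxia from 1 to 4, and losses with hypoxia in co-culture and with co-culture in hypoxia from 0 to 2 each. At a -log10 q of at least 5, gains were 1 with hypoxia in co-culture, 5 with co-culture in normoxia and 0 with co-culture in hypoxia, where 1 region was lost. When a peak had to cover at least 50% of its region, 5 were gained with co-culture in normoxia and 1 lost with hypoxia in co-culture. Within 2 kb of gene bodies, gains with hypoxia in co-culture were 1 and with co-culture in hypoxia 0. Within 50 kb they were 11, 5, 10 and 4 for hypoxia in monoculture, hypoxia in co-culture, co-culture in normoxia and co-culture in hypoxia. Leaving out a library gave 4 to 9 gains with hypoxia in monoculture, 4 to 7 with co-culture in normoxia and 1 to 3 with co-culture in hypoxia, and 0 to 1 losses with hypoxia in co-culture and 0 to 2 with co-culture in hypoxia. Fewer libraries per group make the rule easier to meet.

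In the rank test, leaving out a library gave 0 to 5 member calls for co-culture in hypoxia, 0 to 4 for culture over both oxygen levels, and 0 to 1 each for hypoxia in co-culture and for oxygen over both cultures. Without monoculture normoxia replicate 1, which let 12 member regions enter, the start site of Irf3 and Bcl2l12 passed for hypoxia in co-culture (1.35, limma adjusted p = 0.0499), oxygen (1.13, adjusted p = 0.0245), culture (1.38, adjusted p = 0.0219) and co-culture in hypoxia (1.59, adjusted p = 0.0279), and Irf9 passed for the last 2 (1.38, adjusted p = 0.0204, and 1.05, adjusted p = 0.0491). The region inside Tyk2 passed, lower, for co-culture in hypoxia without either monoculture normoxia replicate (-1.23, adjusted p = 0.0377, and -1.28, adjusted p = 0.0353). Without replicate 1 the Jak1 calls for culture were lost, at limma adjusted p = 0.05004 and 0.0511. Without monoculture normoxia replicate 2, the Ifnar1 start site passed for culture (0.92, adjusted p = 0.0489), as did the Irf1 upstream region (0.83, adjusted p = 0.0454), which also passed for co-culture in hypoxia (1.24, adjusted p = 0.0311). Without co-culture hypoxia replicate 1 only the Jak1 region at 109.2 kb passed for culture (adjusted p = 0.0499). Ranking by deposited fold gave 0 calls for co-culture in hypoxia and 0 for culture, and so did the fit without moderation (0 and 0). The 6 libraries outside monoculture normoxia, an alternative chosen after seeing the data, gave 5 for co-culture in hypoxia. The differences of the called single regions had the same sign under all alternatives run, but by deposited fold that of the Irf1 upstream region was near 0 (0.06, from 1.11) and that of Jak1 at 91.94 kb over both oxygen levels was -0.36, from -0.78. The cause of these changes was not tested.

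With the replicate number as a block, member calls were 2 for co-culture in hypoxia and 3 for culture over both oxygen levels, where the Ifnar1 start site joined (0.75, limma adjusted p = 0.0475), and 0 in the other comparisons. Over all regions the block changed the calls from 74 to 50, 302 to 209, 643 to 602 and 690 to 617 for hypoxia in co-culture, co-culture in hypoxia, oxygen and culture. The numbers do not mark a known pairing. The monoculture normoxia libraries had the lowest estimated coverage and the shortest lists, and whether the depth sets the list length was not tested.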
